A study of Mus musculus with 9 samples.

Results

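The nuclear respiratory chain genes are those whose symbols begin with Ndufa, Ndufb, Ndufc, Ndufs, Ndufv, Sdh, Uqcr, Cox4, Cox5, Cox6, Cox7, Cox8 or Atp5. This naming rule took 93 of the 19360 genes of the table, and 90 of them averaged a scaled count of 10 or more over all libraries and so were among the 14199 genes tested. No measured change entered the rule. By symbol, 38 encode subunits of complex I, 4 of complex II and 8 of complex III, 15 belong to complex IV and 17 to ATP synthase, and 11 encode assembly factors (7 Ndufaf genes for complex I and 4 Sdhaf genes for complex II). Both Atp5s and Atp5sl carry names under which they are no longer listed (Dmac2l and Dmac2), and Ndufa4, named for complex I, is now regarded as a complex IV subunit.

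RNA from small sections of the small intestine of 9 BALB/c mice, an inbred strain, was sequenced with a poly(A) kit, 3 mice to a group. Every mouse had received a dose of 9 Gy as total body irradiation (TBI) 12 h earlier. The TBI group had no other treatment, the 3pRNA + TBI mice were given 3pRNA, a triphosphate RNA that activates the cytosolic sensor RIG-I, 24 h before irradiation, and the 3pRNA + anti-IFNAR1 + TBI group received in addition an antibody that blocks the type I interferon receptor, 48 h before irradiation. No group holds unirradiated mice, mice given the carrier of 3pRNA alone or mice given a control antibody, so a carrier effect and a 3pRNA effect cannot be told apart, nor an effect of antibody as such and of receptor blockade. The groups ask whether 3pRNA changed RNA levels in irradiated intestine and whether a change needed the receptor.

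The respiratory chain of the inner mitochondrial membrane passes electrons from NADH (complex I) and succinate (complex II) through complex III to oxygen at complex IV, and ATP synthase uses the proton gradient built on the way. Most subunits are encoded in the nucleus, translated in the cytosol and imported, while a small set, including the catalytic core of complex IV, is encoded by mitochondrial DNA. Absorptive enterocytes, the main cell type of the villus, rely on this chain to drive nutrient transport.

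The libraries held 6487053 to 19946586 reads in genes. Values are scaled counts, that is, reads divided by the size factor of the library, and changes are differences of log2(scaled count + 1), which is compressed for low counts. The label small intestine was matched by enterocyte markers such as Anpep, Sis and Vil1 at scaled counts of 25470 or more in every library, whereas Fabp1 and Lct, listed as enterocyte markers too, were at 15.1 or less. Marker RNA of several tissues and cell types differed between the libraries. The mean of 11 smooth muscle markers was 8.22 and 8.26 on the log2 scale in TBI replicates 1 and 3 and 10.08 to 10.92 in the other 7 libraries. Of 8 adipocyte markers, 7 were called higher in 3pRNA + TBI than in TBI, with a median log2 change of 4.92, as were 6 of 9 tested enteric neuron and glia markers, while 4 of 4 T cell markers were called lower. The brown adipocyte marker Cidea was at 0 in all TBI libraries and at 2.96 or less elsewhere. In bulk tissue, fewer cells of a type and less RNA per cell cannot be told apart.

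The genes of the naming rule held a nearly fixed share of the RNA. They took 1.07% ± 0.0215 (SD, n = 3) of all scaled counts in TBI, 1.04% ± 0.0396 in 3pRNA + TBI and 1.07% ± 0.0179 in 3pRNA + anti-IFNAR1 + TBI. The libraries of the 3 groups overlapped in this share, between 1.003% and 1.086%. Within a group the genes were steady, with a median coefficient of variation of 6.47% over the 90 tested genes. It was 5.29% for the 35 genes with a mean of at least 1000 and 13.2% for the 19 genes with a mean under 200.

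Per kilobase of exon, the complexes stood at different levels. Exon lengths came from the GENCODE M21 annotation (GRCm38), in which all 93 genes were found (the authors used mm9), and the length joins all transcripts of a gene, so genes with long rare transcripts come out too low. The median gene of complex IV reached a scaled count per kilobase of 1953, that of complex III 1723, that of ATP synthase 1631 and that of the complex II subunits 1585, against 589 for the complex I subunits. The assembly factors, which build the complexes but do not stay in them, were far below, with medians of 59.2 for complex I and 46.5 for complex II. Highest of all was Atp5b, the catalytic β subunit of ATP synthase, at 9333 per kilobase, followed by Atp5g3 (c subunit of the membrane ring) at 5880, Cox4i1 at 5195, Cox6a1 at 5033 and Atp5a1 (α subunit) at 4715. Levels also differed widely among the tested genes of a complex, from 122 to 5195 in complex IV and from 716 to 3187 in complex III. The lowest were Cox7c and Uqcrb. Of the 50-base stretches of their transcripts, 41% and 43.4% also occur in transcripts of other genes, so their levels are uncertain.

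**Figure D1:**
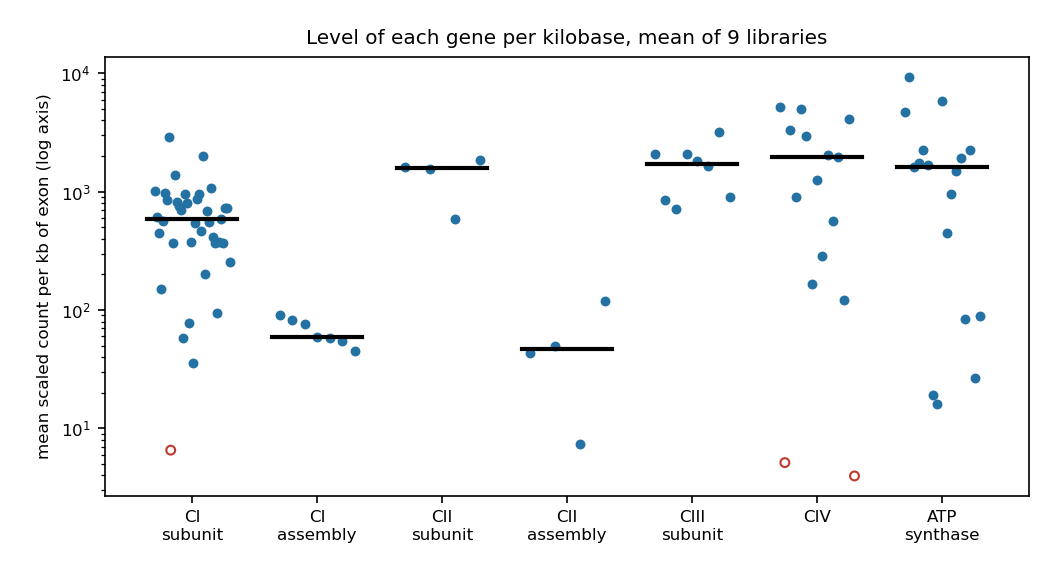
Mean scaled count per kilobase of exon over the 9 libraries (log axis) for each gene, by complex. Filled points are tested genes, open points the 3 genes under the minimum, and black lines the median of the tested genes. The assembly factors lie at medians of 59.2 and 46.5, below the 589 of the complex I subunits and the 1953 of complex IV.

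Where a subunit has tissue isoforms, the form found in most tissues prevailed. Cox4i2, the lung form of subunit 4, had 36 reads in all 9 libraries together, against 5195 scaled counts per kilobase for Cox4i1. Cox8b, the form of heart and skeletal muscle, had 11 reads in all and none in TBI, and Ndufa4l2, a hypoxia-inducible relative of Ndufa4, had 54. These 3 were the members under the minimum for testing. The muscle form Cox7a1 was measurable, at 289 scaled counts per kilobase against 2059 for Cox7a2, a 7.14-fold difference, and Cox6b2, the testis form of subunit 6b, stood 17.7-fold below Cox6b1 (166 against 2949). Among the 3 genes for the identical mature c subunit, Atp5g3 was 306-fold above Atp5g1 and 367-fold above Atp5g2 per kilobase. The figure for Atp5g1 depends on its joined exon length, 4.912 kb against 0.724 kb for Atp5g3. Without division by length, the mean scaled counts were 94.5 for Atp5g1 and 4257 for Atp5g3. For Atp5g2 the level is uncertain, because 92.0% of the 50-base stretches of its transcripts also occur in transcripts of other genes, and the gene had 100 reads in all. Stretches of that length were shared by 50 of the 93 genes, above 50% in 5 of them (84.8% in Atp5l, 52.1% in Atp5h and 50.3% in Atp5o besides Atp5g2 and Sdhaf1). How such reads were counted is not given in the sources used here.

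Promoter sequence is shown to set these genes beside regulators long tied to respiratory genes. The first listed RefSeq window (GRCm38.p6, 250 bases before to 50 after the start) was found for 79 of the 93 genes. Both strands were searched for the palindromic motif of NRF1 (nuclear respiratory factor 1), for CCGGAAG, a core bound by ETS factors such as GABPA, and for AANATGGC, a YY1 motif. The motifs do not overlap by construction, but matches in a window may. The NRF1 motif was in 7 of 78 windows of tested members (8.97%) and in 1.92% of 10522 windows of other tested genes. The ETS core was in 24.4% against 17.4%, and the YY1 motif in 23.1% against 8.40%. These shares are descriptions of letters in one window per gene. In 5 genes the NRF1 match lay wholly before the start site, and 30 bases around each follow, 5′ to 3′ on the strand of the gene, with the motif in capitals.
Atp5g2: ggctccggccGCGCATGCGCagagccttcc
Atp5k: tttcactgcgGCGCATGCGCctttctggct
Cox6a1: caggaacgggGCGCATGCGCgctctcgctc
Ndufa11: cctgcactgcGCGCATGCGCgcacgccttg
Ndufaf4: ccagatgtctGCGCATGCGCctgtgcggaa
On GRCm38.p6 they lie at chr15:102671070-102671099 on the minus strand (Atp5g2), chr5:108434430-108434459 on the minus strand (Atp5k), chr5:115349101-115349130 on the minus strand (Cox6a1), chr17:56717692-56717721 on the plus strand (Ndufa11) and chr4:24897960-24897989 on the plus strand (Ndufaf4). All are upstream of the gene's start, with 32 bases between motif and start for Atp5g2, 40 for Atp5k, 152 for Cox6a1, 50 for Ndufa11 and 103 for Ndufaf4. Among the complex IV genes, the ETS core lay before the start in a pair, shown with the core (here read on the opposite strand) in capitals.
Cox6a1: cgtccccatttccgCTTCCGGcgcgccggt
Cox6b1: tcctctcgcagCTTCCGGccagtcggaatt
These are at chr5:115348959-115348988 and chr7:30626124-30626153, both on the minus strand, with 9 and 21 bases to the start. Of the 5 genes called below, Cox4i1 had no window in the table, and the windows of Cox7a2l, Cox7a2, Ndufa1 and Atp5d held none of the 3 motifs.

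The first comparison asked what 3pRNA given before irradiation did to these genes. Differences were small and mostly negative, and complex IV had the lowest class median. Of the 90 genes tested, 5 were called lower in 3pRNA + TBI than in TBI at an adjusted p under 0.05 (limma, Benjamini-Hochberg over all 14199 genes) and 0 higher. That is 5.56% lower, where 2.11% of all genes tested were called lower and 3.48% higher. At an unadjusted p under 0.05 there were 17 lower and 2 higher, where 1578 of all 14199 genes were lower and 1579 higher. The log2 change was negative in 63 of the 90 and in 7663 of the 14199. Its median was -0.09 in the 90, beside -0.02 for all genes tested. The 5 called genes were 3 of complex IV by symbol (Cox4i1, Cox7a2l and Cox7a2), the complex I subunit gene Ndufa1 and the ATP synthase gene Atp5d. Classes follow symbols throughout, so complex IV counts Cox7a2l and does not count Ndufa4.

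These calls depended on the scaling and on single libraries. The mean total of scaled counts was highest in TBI, though the libraries overlapped with those of 3pRNA + TBI, and scaling all libraries to equal totals moved the median gene by 0.113, from -0.0237 to 0.0894. The median of the respiratory chain genes moved with it, from -0.0905 to 0.023, and none of the 90 was called. Over all genes the share of calls that were higher went from 62.2% (494 higher and 300 lower) to 82.1% (804 and 175). Relative to the median gene, the members' median was -0.0668 with the authors' size factors and -0.0664 with equal totals. That of complex IV was -0.199 with both. Rescaling moves all genes of a library by nearly the same amount. These differences could therefore hardly change, and their likeness is no sign of stability. Leaving out any 1 of the 9 libraries lowered the count of 5 to between 0 and 2. It was 0 when TBI replicate 1 or 3 or 3pRNA + TBI replicate 1 or 3 was left out. The lower calls over all genes fell there too, from 300 to 80, 89, 45 and 74 in that order. Without 3pRNA + TBI replicate 2 they rose to 555 (3.91%), beside 2 members (2.22%). Without TBI replicates 1 and 3 together, the pair low in smooth muscle markers, only TBI replicate 2 was left in its group, and the members' median was -0.146.

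**Figure D2:**
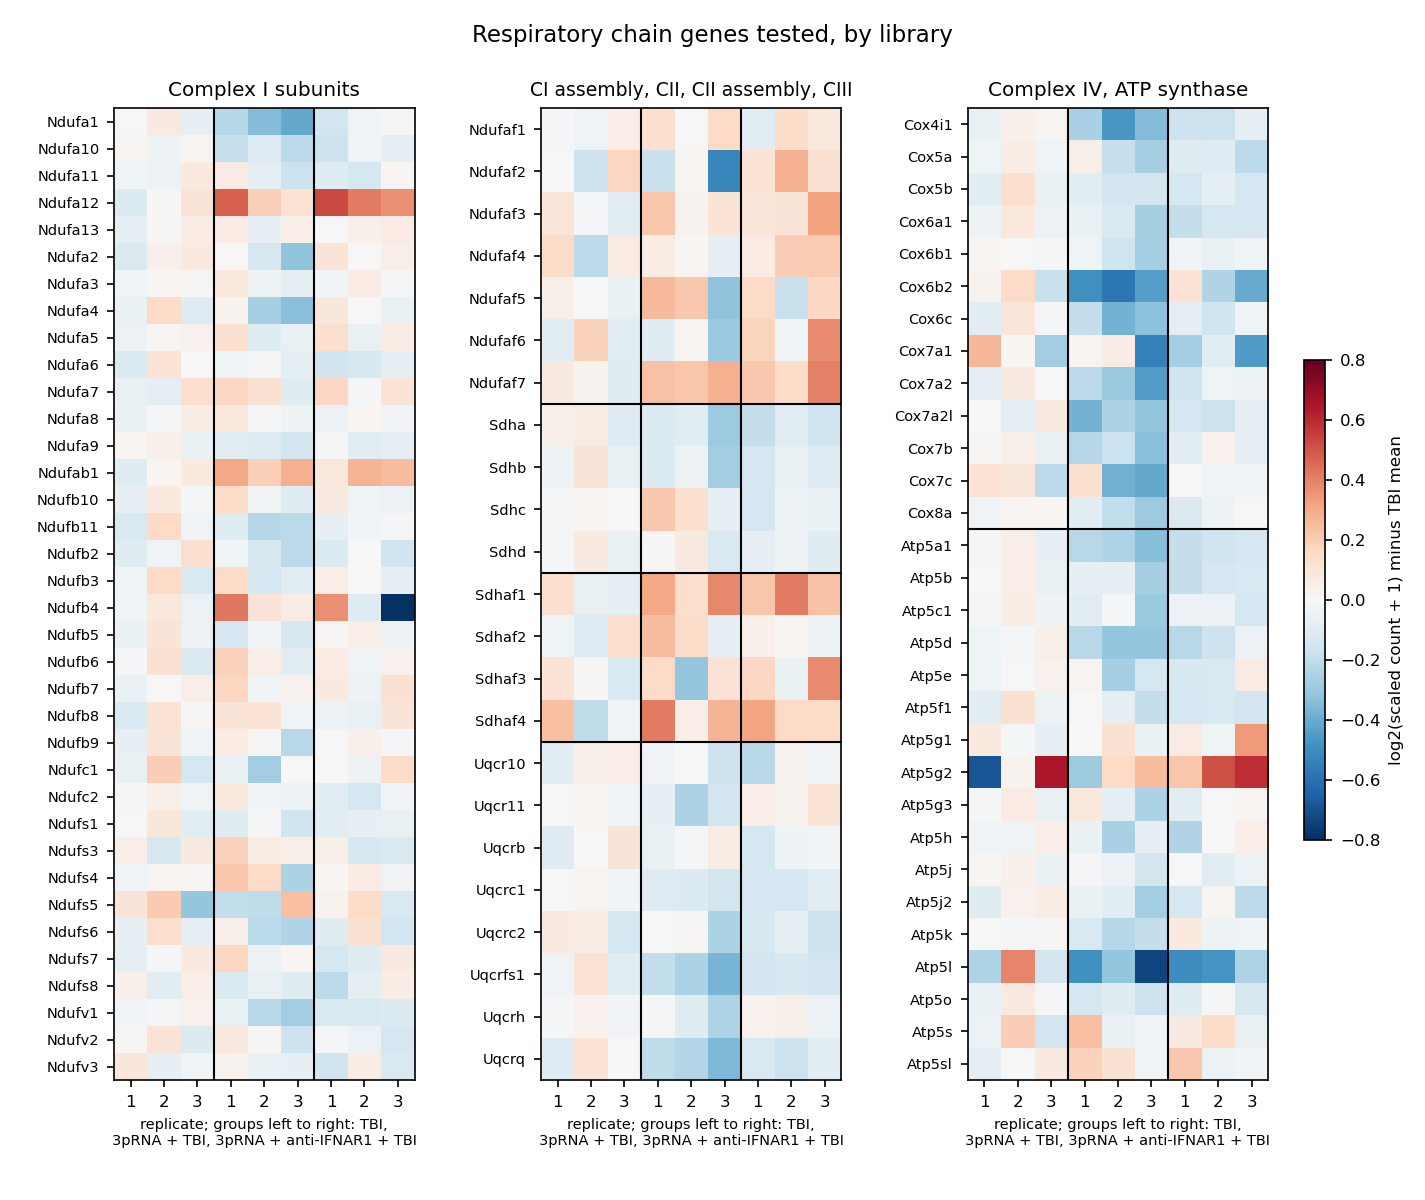
Heat map of log2(scaled count + 1) minus the TBI mean (color, cut at 0.8 in each direction) for the tested genes, 1 left out, in the 9 libraries, grouped by complex. Complex IV is below its TBI mean in most cells of the 3pRNA + TBI columns, while complex I subunits are mixed and Ndufa12, Ndufab1 and Sdhaf1 are above it.

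In complex IV (cytochrome c oxidase) all 13 tested genes had a negative log2 change, where 7663 of all 14199 genes did. The 13 ranged from -0.505 to -0.131, with a median of -0.223. With equal totals the median was -0.11, with 13 of 13 negative and 0 called. Without 3pRNA + TBI replicate 3 it was -0.141 and 12 of the 13 were negative. The complex IV mean of each 3pRNA + TBI library lay below that of each TBI library, at 0.14, 0.253 and 0.338 under the TBI mean on the log2 scale in replicates 1, 2 and 3. In 10 of the 13 genes (76.9%) no 3pRNA + TBI library reached into the range of the TBI libraries, where 13% of all genes tested were lower without overlap and 12.2% higher. Complex IV was not alone in this. Lower without overlap were 50% of complex III, 41.2% of ATP synthase and 13.5% of the complex I subunits, and 28.9% of all 90 members. Higher without overlap were 4.44% of the members.

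Cox4i1 (ENSMUSG00000031818, chromosome 8) encodes the ubiquitous form of subunit 4, the largest nuclear subunit of the enzyme. Its scaled counts were 4243, 4566 and 4489.6 in TBI, 3705, 3205.5 and 3480.5 in 3pRNA + TBI, and 3943, 3936 and 4196 in 3pRNA + anti-IFNAR1 + TBI. Every 3pRNA + TBI library was below every other library, and the blockade libraries lay between the other groups without overlap. The mean fell by 21.9%, from 4433 ± 169 (SD, n = 3) to 3464 ± 250.4. On the log2 scale the change was -0.36 with a standard error of 0.078 (limma, adjusted p = 0.030).

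Cox7a2l (ENSMUSG00000024248, chromosome 17) encodes a factor that joins complex III to complex IV in supercomplexes. It was at 714, 676 and 748 in TBI, at 549, 596 and 574 in 3pRNA + TBI and at 648, 632 and 673 in 3pRNA + anti-IFNAR1 + TBI. The 3 groups did not overlap, and the order was that of Cox4i1. The log2 change between 3pRNA + TBI and TBI was -0.31 (standard error 0.072, adjusted p = 0.034 from limma), a fall in the mean by 19.6%.

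Cox7a2 (ENSMUSG00000032330, chromosome 9), the common form of subunit 7a, was at 1405, 1554 and 1483 in TBI, at 1278, 1204 and 1085 in 3pRNA + TBI and at 1324.5, 1442 and 1439 in 3pRNA + anti-IFNAR1 + TBI. The 3pRNA + TBI libraries were lowest, and the other groups overlapped each other. The mean fell by 19.7% (log2 change -0.32, standard error 0.081, adjusted p = 0.047 from limma).

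Just outside the threshold stood Cox6c (log2 change -0.30, adjusted p = 0.053), Cox7b (-0.25, adjusted p = 0.074) and Cox6b2, which had the largest change of the complex (-0.51, standard error 0.151, adjusted p = 0.075 from limma). Cox6b2 was at 145, 158 and 125 in TBI, 101, 94.7 and 104 in 3pRNA + TBI and 154, 120 and 107 in 3pRNA + anti-IFNAR1 + TBI. The muscle form Cox7a1 had a log2 change of -0.15 (adjusted p = 0.69 from limma) with overlapping groups, while the 11 smooth muscle markers had a median of 1.88 and 6 of them were called higher.

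**Figure D3:**
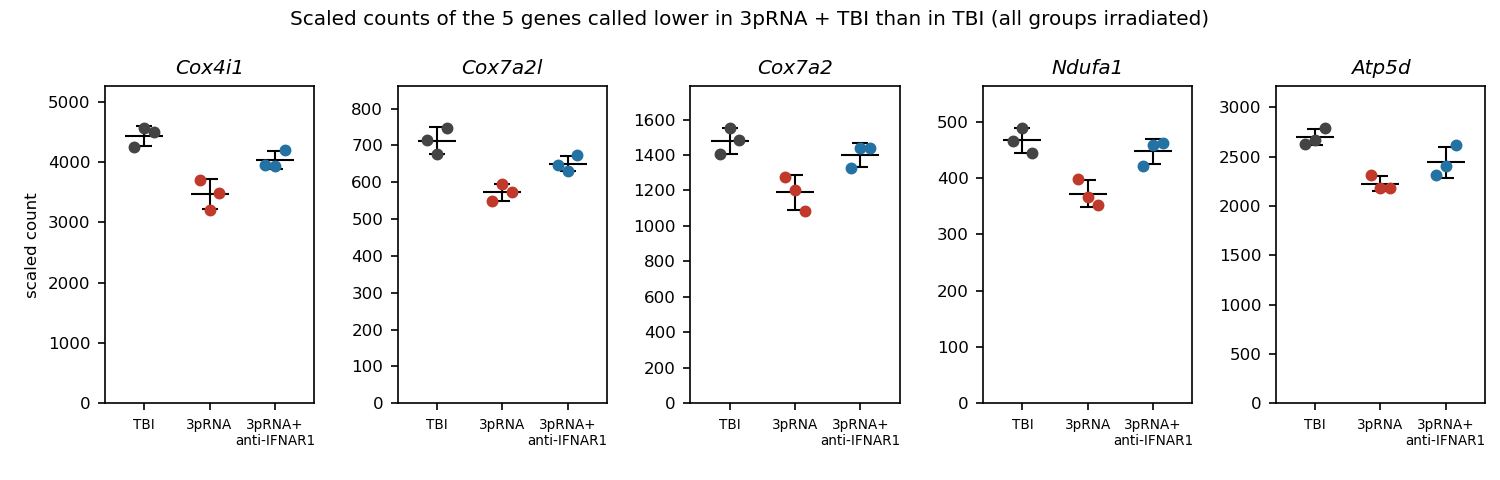
Scaled counts of the 5 genes called lower in 3pRNA + TBI than in TBI, each point a library, with the mean and SD of 3 mice per group. In each panel the 3pRNA + TBI points are below all points of the other groups, and the blockade mean lies between.

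Among the 37 tested complex I subunits, 1 was called, and the class as a whole stayed close to the median gene (median log2 change -0.031, 14 positive and 23 negative). Ndufa1 (ENSMUSG00000016427, chromosome X), an accessory subunit of the membrane arm, was at 466, 489 and 444 in TBI, 398, 366 and 351 in 3pRNA + TBI and 421, 458 and 463 in 3pRNA + anti-IFNAR1 + TBI. The 3pRNA + TBI libraries were again the lowest, while blockade and TBI overlapped. Its mean fell by 20.3% (log2 change -0.33, standard error 0.082, adjusted p = 0.046 from limma). The 7 core subunits, which carry the flavin, the iron-sulfur clusters and the quinone site and are conserved from bacteria, had a median of -0.0887 and 0 calls. The 30 accessory subunits had a median of -0.0264. Ndufab1, the mitochondrial acyl carrier protein, was higher without passing the test (log2 change 0.26, adjusted p = 0.12 from limma), with 212, 229 and 240 in TBI and 281, 259 and 277 in 3pRNA + TBI. Ndufa4, the most abundant gene of the class by symbol, overlapped between the groups (log2 change -0.19, adjusted p = 0.32 from limma).

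ATP synthase had 1 called gene of 17 and a median of -0.127. Atp5d (ENSMUSG00000003072, chromosome 10), the δ subunit of the rotating central stalk, was at 2633, 2671 and 2793.5 in TBI, 2311, 2181 and 2179 in 3pRNA + TBI and 2312.5, 2402 and 2615 in 3pRNA + anti-IFNAR1 + TBI. The groups did not overlap, although the lowest blockade library was less than 2 scaled counts above the highest 3pRNA + TBI library. The mean fell by 17.6% (log2 change -0.28, standard error 0.072, adjusted p = 0.049 from limma). Atp5a1 stood just outside the threshold (15084 ± 650.2 to 12501 ± 541, log2 change -0.27, adjusted p = 0.098 from limma), whereas Atp5b, its partner in the catalytic hexamer, had a log2 change of -0.13 (19046 ± 749 to 17418 ± 1348, adjusted p = 0.49 from limma). The c subunit genes Atp5g1, Atp5g2 and Atp5g3 had log2 changes of 0.022, 0.044 and -0.081, with all groups overlapping. Atp5l had the lowest value of the class, -0.51 (adjusted p = 0.19 from limma), but is mostly shared sequence and was at 32.9 to 73.0.

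None of the 8 complex III genes was called, yet all were negative, with a median of -0.12. Scaling to equal totals moved the median gene up by 0.113, and among the class medians only that of complex IV was recomputed with it. In the other classes, negative log2 changes and medians nearer to 0 than that have no settled direction. Positive ones would move further up with that scaling. Uqcrfs1, the Rieske iron-sulfur protein, was at 2462.5 ± 178 in TBI and 2035 ± 128 in 3pRNA + TBI (log2 change -0.27, adjusted p = 0.062 from limma). Uqcrq was at 1789 ± 132 and 1487 ± 86.1 (log2 change -0.27, adjusted p = 0.069 from limma). Uqcrc1, the most abundant gene of the complex and one of its core proteins, was at 3664 ± 60.4 and 3368 ± 56.5 (log2 change -0.12, adjusted p = 0.30 from limma). Their groups did not overlap. In complex II, which has no mitochondrially encoded subunit, no gene was called, the median was -0.0777 and 3pRNA + TBI overlapped with TBI in all 4 genes. Sdha, the flavoprotein that oxidizes succinate, was at 4987 ± 311 in TBI and 4453 ± 335 in 3pRNA + TBI (adjusted p = 0.29 from limma), and Sdhb, the iron-sulfur subunit, at 1890 ± 118 and 1715 ± 144 (adjusted p = 0.34 from limma).

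The assembly factors had class medians above 0. The 7 Ndufaf genes had a median log2 change of 0.051 and the 4 Sdhaf genes of 0.18, and none was called. Sdhaf1, which helps to place iron-sulfur clusters in Sdhb, was at 103, 90.0 and 89.3 in TBI and 117, 104 and 122.9 in 3pRNA + TBI, without overlap (log2 change 0.28, adjusted p = 0.22 from limma), although 69% of its 50-base stretches occur in other transcripts. Ndufaf7, a methyltransferase that acts in complex I assembly, had a log2 change of 0.25 (adjusted p = 0.24 from limma). Ndufaf4, the most abundant complex I factor, stood at 208 ± 26.1 and 207 ± 9.11. The 2 classes were also the least abundant, and the difference between classes was not tested.

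**Figure D4:**
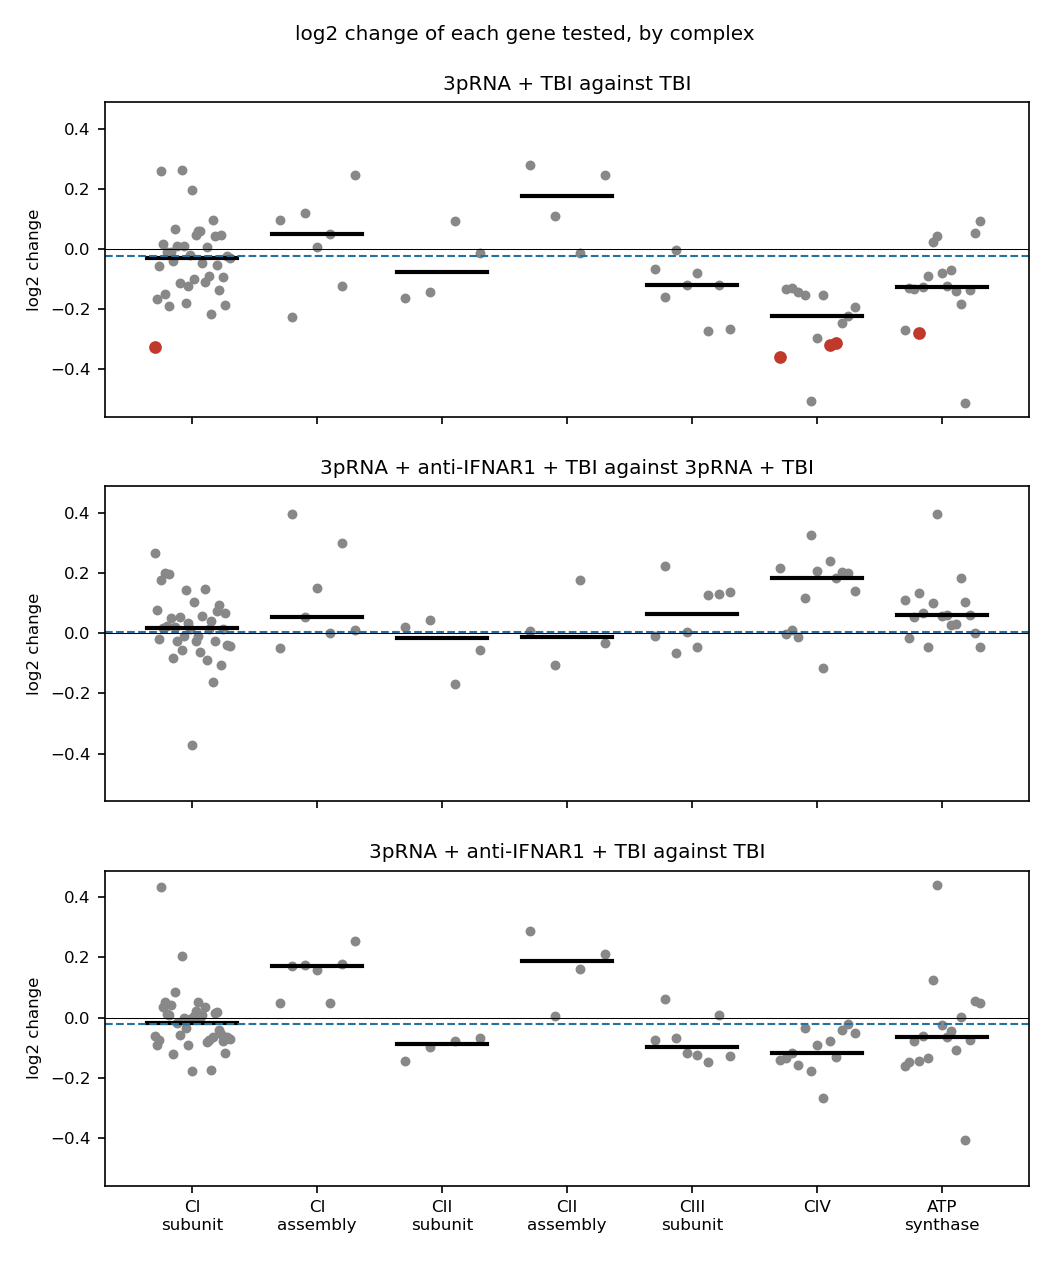
log2 change of each tested gene by complex in the 3 comparisons. Red points passed an adjusted p of 0.05, black bars are class medians and the dashed line is the median of all genes tested. In the top panel the complex IV median is -0.223 against -0.0237 for all genes, and in the middle panel it is 0.184 against 0.0027.

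The second comparison asked whether blocking the interferon receptor before 3pRNA altered these levels. The 5 genes called above had higher means with the antibody than without it, and none of these differences passed the test. Of the 90 genes, 0 were called in either direction by limma, where 0.19% of all genes tested were called higher and 1.23% lower. At an unadjusted p under 0.05, 8 of the 90 were higher and 0 lower, where 728 of all 14199 genes were higher and 774 lower. The median log2 change was 0.0381, beside 0.0027 for all genes, and 18 genes (20%) were higher without overlap and 1 (1.11%) lower, where the background was 8.25% and 7.25%. Without 3pRNA + TBI replicate 3 the median was -0.000833. This comparison and the first share the 3pRNA + TBI libraries, so opposite signs in them are not independent.

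Complex IV again had the largest class median, 0.184, with 10 of 13 genes positive and 6 higher without overlap. It was 0.106 without 3pRNA + TBI replicate 3. Ndufa1 had the smallest p of the respiratory genes (log2 change 0.27, standard error 0.082, adjusted p = 0.23 from limma), with a mean 20.2% higher. Cox4i1 had a log2 change of 0.22 (adjusted p = 0.33), Cox7a2 of 0.24 (adjusted p = 0.29), Cox7a2l of 0.18 (adjusted p = 0.38) and Atp5d of 0.13 (adjusted p = 0.58, all from limma). Within 2 standard errors the change of Cox4i1 reached from 0.062 to 0.375 and that of Atp5d from -0.0096 to 0.278. Medians in the other classes were 0.0609 for ATP synthase, 0.0656 for complex III, 0.0185 for complex I subunits and -0.0164 for complex II subunits.

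The third comparison set the blockade group against TBI alone. No gene of the 14199 tested was called in it by limma (0% in each direction, with 902 of all genes higher and 851 lower at an unadjusted p under 0.05). Without TBI replicate 2, 311 genes were called higher and 44 lower, and without 3pRNA + anti-IFNAR1 + TBI replicate 2, 4 and 5, with 0 respiratory genes among them in both. Of the 90 genes, 3 were higher and 1 lower at an unadjusted p under 0.05 with all libraries. The median was -0.053, beside -0.0195 for all genes, and 0.0501 when libraries were scaled to equal totals, where the median gene stood at 0.0831. Lower without overlap were 16 genes (17.8%, background 12.1%) and higher 5 (5.56%, background 7.01%). All 13 complex IV genes were negative, with a median of -0.119, which was -0.0509 (12 of 13 negative) without TBI replicate 2. With equal totals this median was -0.0158 and 7 of the 13 were negative. Cox4i1 had a log2 change of -0.14 (adjusted p = 0.50 from limma), Cox7a2l of -0.13 and Atp5d of -0.15, while Ndufa1 (-0.061) and Cox7a2 (-0.079) were nearer to TBI and changed sign with equal totals. Over the 90 genes the 3pRNA + TBI mean was the lowest of the 3 in 52, and in 10 of the 13 complex IV genes. In each of the 10 the blockade mean lay between the other group means. These orders were not counted over all genes tested, so whether they are particular to the respiratory genes is not known. They also rest on the same 3pRNA + TBI libraries as the first 2 comparisons. The smallest p belonged to Ndufa12, an accessory subunit of complex I, at 131, 143 and 152 in TBI, 197, 162 and 154 in 3pRNA + TBI and 205, 189 and 183 in 3pRNA + anti-IFNAR1 + TBI. Every library of the groups given 3pRNA was above every TBI library, but the change of 0.44 did not pass (adjusted p = 0.20 from limma), and 35.2% of its 50-base stretches occur in transcripts of another gene.

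Other genes of the mitochondrion were set beside these, from lists that share no member with them. Scaling to equal totals, which moved the median gene up by 0.113 in the first comparison, was not repeated for these lists. Negative medians of that comparison nearer to 0 than that therefore have no settled direction. Of the 9 tested transcripts of the mitochondrial genome, which include both ribosomal RNAs, 0 were called in any comparison. Their median log2 change was -0.298 between 3pRNA + TBI and TBI and 0.211 between blockade and 3pRNA + TBI. Transcript mt-Cytb, the complex III subunit made in the mitochondrion, was at 62750, 70750 and 55640 in TBI, 46360, 50000 and 44690 in 3pRNA + TBI and 65140, 64110 and 55610 in 3pRNA + anti-IFNAR1 + TBI (log2 change -0.42 in the first comparison, adjusted p = 0.14 from limma). The 3pRNA + TBI libraries were the lowest. Transcripts mt-Co2, mt-Co3 and mt-Atp6 were at 6.23 or less in every library, under the minimum, so the mitochondrially encoded core of complex IV is seen here through mt-Co1 alone (log2 change -0.18, adjusted p = 0.65 from limma).

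The 13 genes of the tricarboxylic acid cycle (median -0.111), the 29 assembly factors outside the naming rule (-0.0418), the 13 tested regulators of respiratory genes (-0.0917) and the 7 tested carriers and uncouplers (-0.0787) had 0 calls in the first comparison, as did Cyc1 and Cycs. The 78 tested genes of the mitochondrial ribosome had a median of 0.002 and 0 calls. Among the regulators, the coactivator gene Ppargc1a had a log2 change of 0.14 (adjusted p = 0.75) and its relative Ppargc1b of -0.49 (adjusted p = 0.18 from limma), and Gabpa of -0.25 (adjusted p = 0.18).

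Fatty acid oxidation held the only called genes of these mitochondrial lists, 1 higher and 1 lower of 14 in the first comparison. That is 7.14% in each direction, where 3.48% of all genes tested were called higher and 2.11% lower. Acadl, the long-chain acyl-CoA dehydrogenase that starts each round of β-oxidation, was at 2345, 2048 and 2061 in TBI, 3161, 3012 and 3038 in 3pRNA + TBI and 1726, 1831 and 2040 in 3pRNA + anti-IFNAR1 + TBI. It rose with 3pRNA (log2 change 0.52, standard error 0.084, adjusted p = 0.012 from limma) and was lower with blockade (-0.72, adjusted p = 0.0014 from limma), and 3pRNA + TBI did not overlap with the other groups. Slc25a20, the carnitine carrier of the inner membrane, fell from 1449 ± 213 to 1042 ± 148 (log2 change -0.48, adjusted p = 0.048 from limma).

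The cytosolic ribosomal proteins, which are not mitochondrial, had medians of the same signs as complex IV. Of 85 tested, 2 were called lower in 3pRNA + TBI (Rps3 and Rps4x) and 0 higher, which is 2.35% against 2.11% of all genes called lower. Their median was -0.141, 75 were negative and 26 (30.6%, background 13%) were lower without overlap. Between blockade and 3pRNA + TBI their median was 0.148, and 24 (28.2%, background 8.25%) were higher without overlap.

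Several epithelial marker lists had negative medians in the first comparison too. The 6 pan-epithelial markers (such as Epcam and Cdh1) were all negative in 3pRNA + TBI against TBI, with a median of -0.168 and 0 called. Their mean was 0.09, 0.1 and 0.3 under the TBI mean in 3pRNA + TBI replicates 1, 2 and 3 and 0.16, 0.07 and 0.13 under it in the blockade libraries, where complex IV was 0.104, 0.099 and 0.131 under it. Their summed scaled counts ranged from 118089 to 127933 in TBI, from 96589 to 113804 in 3pRNA + TBI and from 108291 to 115186 with blockade, and none of the 6 was at 0. The 10 tested of 12 enterocyte markers had a median of -0.367, with 7 negative, 3 positive (among them Sis at 0.33), 5 lower without overlap and 0 called. Summed, they ranged from 486654 to 628434 in TBI, from 350884 to 528058 in 3pRNA + TBI and from 447904 to 493835 with blockade. Of 3 Paneth cell markers, all lower without overlap (median -0.487), Lyz1 was called (log2 change -0.64, adjusted p = 0.023 from limma). The 5 goblet cell markers had a median of -0.203 with 2 lower without overlap and 0 called. The 4 stem cell markers were divided, 2 positive and 2 negative, from -0.838 to 0.66 with a median of 0.0934. Of these, Smoc2 was called higher (log2 change 0.66, adjusted p = 0.050 from limma, under the threshold before rounding). The part of tissue composition in the shift of the respiratory genes was not tested.

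**Figure D5:**
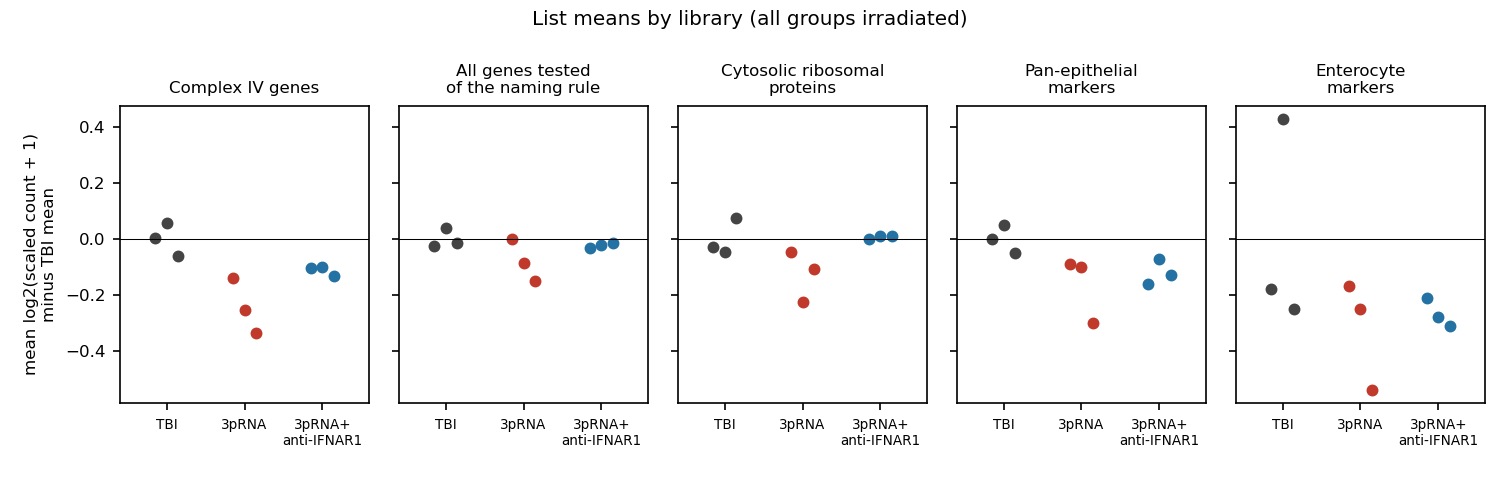
Mean log2(scaled count + 1) minus the TBI mean of each list by library (points, 3 per group). Complex IV and the pan-epithelial markers are both lowest in 3pRNA + TBI replicate 3, at -0.338 and -0.3, and the cytosolic ribosomal proteins lie at the TBI mean with blockade.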

How the data were processed

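The authors mapped the reads to mm9 with STAR (2 passes), used HTSeq for gene counts and DESeq for scaling. The first pass used Ensembl junctions. Tool versions, strandedness and the annotation release were not given in the sources used here. Each deposited value, a signal, is a gene's read count over the library's size factor, with 1 added by the authors. Here 1 was subtracted and log2(scaled count + 1) was fitted with limma 3.58.1 (R 4.3.3), with a variance trend, over all 9 libraries, for genes with a mean of at least 10. P-values were adjusted by Benjamini-Hochberg within each of 3 comparisons (threshold 0.05). The fit was tested on simulated data. The authors' comparison tables (log2 ratios, adjusted p-values, group means) were not used. After subtraction, 100% of values were whole multiples (tolerance 0.02) of a step per library, from which the read numbers given were inferred. The tests used the scaled values, and no count model was run.

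The genes and lists were chosen with earlier results of these data known. Named by rule were called genes, per class the most abundant gene and the 2 with the smallest p in the first comparison, isoform pairs, genes near 0 and called list genes. Others were named after their values were seen. Of the genes the rule names, 1 is counted in the totals and not reported here. The ribosomal list leaves out Rps6k kinases and Rps19bp1. Alternatives were other pseudocounts (0.5 and 5), filters, scalings, moderation, fits of 2 groups, a replicate block, a threshold of 0.1 and each library left out. A fit without TBI replicates 1 and 3 was added after seeing the data.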

Additional observations from a re-analysis of the deposited data

How the results depend on the processing

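The count of 5 genes lower in 3pRNA + TBI than in TBI (5.56%, all genes 2.11%) changed with the setting. It was 2 with no filter on low counts (2.15%, all genes 1.42%) and 2 with upper quartile scaling (2.22%, all genes 1.99%). With robust moderation it was 3 (3.33%, all genes 1.94%), and at a threshold of 0.1 it was 12 (13.3%, all genes 5.2%). It was 0 with equal totals, without a trend and in a fit of the 2 groups compared, where 1.23%, 0.458% and 0.947% of all genes were called lower. With each library left out it was 0 to 2. The labels number the replicates and name no pairing. After subtracting group means, libraries of different groups correlated at -0.193 to 0.345 when same-numbered and at -0.42 to 0.23 otherwise. Every value above 0.23 came from same-numbered pairs of replicates 2 or 3. What such pairs share was not tested. With a replicate block the count of 5 became 7 (7.78%, all genes 4.09%), adding Cox7b and Uqcrfs1. Over all genes that block gave 642 higher and 581 lower calls in 3pRNA + TBI against TBI. The members' counts of 0, higher in this comparison and in both directions of the others, stayed at 0 in every alternative. Over all genes, blockade against TBI had 311 higher and 44 lower calls without TBI replicate 2, 4 and 5 without blockade replicate 2, and 1 lower with a replicate block. Comparison lists were not recomputed under the alternatives.

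The members' median in that comparison (-0.0905) was 0.023 with equal totals, -0.0402 with upper quartile scaling, -0.146 without TBI replicates 1 and 3, and -0.123 to -0.0548 with each library left out. For complex IV (-0.223) it was -0.11 with equal totals and -0.278 to -0.141 with each library left out. Between blockade and 3pRNA + TBI, leaving out libraries gave -0.000833 to 0.0713 for the members and 0.106 to 0.194 for complex IV. Between blockade and TBI the members' median (-0.053) was 0.0501 with equal totals and 0.0109 with upper quartile scaling, and that of complex IV was -0.0158 with equal totals and -0.133 to -0.0509 with each library left out. In this comparison Ndufa1 reversed to 0.0421 with equal totals and 0.00298 with upper quartile scaling, and Cox7a2 to 0.0245 with equal totals. In the first, Ndufaf4 (0.00567) ranged from -0.0993 to 0.0787 with each library left out, reversing to -0.0993, -0.0225 and -0.000528 without TBI replicate 2, 3pRNA + TBI replicate 1 and 3pRNA + TBI replicate 2. The equal totals and upper quartile rescaling moved every gene by nearly the same amount. The cause of the other differences was not tested.

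With 3 mice a group, abundant genes had standard errors of 0.064 to 0.11, and genes under 100 scaled counts up to 0.40. Among the members, the smallest change called was a fall of 17.6% (Atp5d in the first comparison). A fall of 18.6% there (Cox6c) was not called. Nor was a rise of 20.2% between blockade and 3pRNA + TBI (Ndufa1). An absence of calls therefore does not exclude changes of this size.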
